A study of Mus musculus with 6 samples.

Results

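The cells described here are the pro-B and pre-B progenitors of mouse bone marrow, measured by single-cell RNA-Seq of marrow enriched for c-Kit, the receptor of stem cell factor. A cell counted as a member when it had at least 1 unique molecular identifier (UMI, the tag that marks 1 captured transcript) of Cd79a, at least 1 UMI of Vpreb1, Igll1, Rag1 or Dntt, and no UMI of Ms4a1, the gene of the mature B cell antigen CD20. The rule found 219 members among 32762 filtered cells, a share of 0.668% (95% exact interval 0.583% to 0.763%, which covers counting error only). The members were thus chosen by measured UMI counts of these 6 genes, and every difference between members and other cells is a description with no test.

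The study asked how a mammary tumor and brequinar, an inhibitor of the pyrimidine synthesis enzyme DHODH, act on marrow progenitors. All 9 mice were BALB/c, 10 weeks old and, per the study's methods, female. The non-tumor-bearing (NTB) mice carried no tumor and were untreated, the vehicle (Veh) mice carried orthotopic tumors of 4T1, a BALB/c mammary carcinoma cell line, and received DPBS daily for 2 weeks, and the brequinar (BRQ) mice carried the same tumors and received brequinar at 10 mg/kg by daily intraperitoneal injection for 2 weeks. Each of 3 pools was sequenced as 1 library and held 1 mouse of each group, so the c-Kit selection, the strain and the pool layout were shared by all groups, and no group had a tumor-free brequinar control.

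Pro-B cells are the first marrow cells committed to the B lineage. Under the transcription factors EBF1 and PAX5 they rearrange the immunoglobulin heavy chain genes with the RAG1 and RAG2 recombinase, while terminal transferase, the product of Dntt, adds bases at the joins. A successful heavy chain pairs with the surrogate light chain, made of VPREB and the Igll1 product lambda 5, and with CD79A and CD79B to form the pre-B cell receptor, which marks the passage to the pre-B stage and drives a burst of division that also depends on interleukin-7.

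The mice of a pool were told apart by antibodies that carry a short DNA barcode, the hashtag, and the group of every member rests on these 3 barcodes, printed 5′ to 3′ as deposited. B0301 marked the NTB mouse, B0302 the vehicle mouse and B0303 the brequinar mouse of each pool.
B0301: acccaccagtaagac
B0302: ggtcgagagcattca
B0303: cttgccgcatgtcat
Hashtag counts gave 147 members (67.1%) to a single mouse, against 48.6% of the other cells, while 49 members had no positive hashtag and 23 had more than 1. In the NTB members of pool 3 the median B0301 count was 742.5 beside 861.5 for B0302, so that B0302 was high also outside its own mouse there. In pool 2 the B0302 median was 631 beside 793 for their own tag in NTB members and 813.5 beside 1083.5 in brequinar members, in pool 3 it was 1007.5 beside 1313.5 in brequinar members, and in pool 1 it was 321.5 and 326 in these groups, a background that bears on every comparison between groups. A simpler call by the ratio of the hashtags placed 90 members, 59 of them among the 147 and all in the same mouse, but it gave 0 and 2 members to NTB mice 2 and 3, against 21 and 14, 18 to vehicle mouse 2, against 5, and 3 to each of brequinar mice 2 and 3, against 28 and 26. The assignment of mice in pools 2 and 3 thus depends on the way the hashtags are called. Pools 1, 2 and 3 held 59, 79 and 81 members (0.528%, 0.824% and 0.675% of their cells). The pools shared 38 to 48 cell barcodes between any pair, and none of these barcodes was a member in both. Members were smaller libraries than the rest, with a median of 3968 UMIs against 9502 in other cells, and their UMIs summed to 382910, 589563 and 533009 per pool.

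The members carried the transcripts of B lineage progenitors well beyond the genes that chose them. Levels are given as CPM, UMIs per 1000000 UMIs of the summed cells, in pools 1, 2 and 3 in that order. Ebf1, the factor that commits cells to the B lineage, stood at 2405, 1776 and 1771 CPM in members against 1.28 to 2.06 CPM in other cells, and 96.3% of members had a UMI of it against 0.777% of other cells. Pax5, which holds that commitment, stood at 332, 305 and 251 CPM and was seen in 68.0% of members against 0.138% of other cells. Il7r, the receptor of interleukin-7, was seen in 66.2% against 0.830%, Lef1 in 76.3% against 0.157% and Vpreb3 in 90.0% against 0.489%. These shares were higher in members in spite of their shallower libraries. None of these 5 genes was part of the rule, and the levels of all 5 went with the label.

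**Figure D1:**
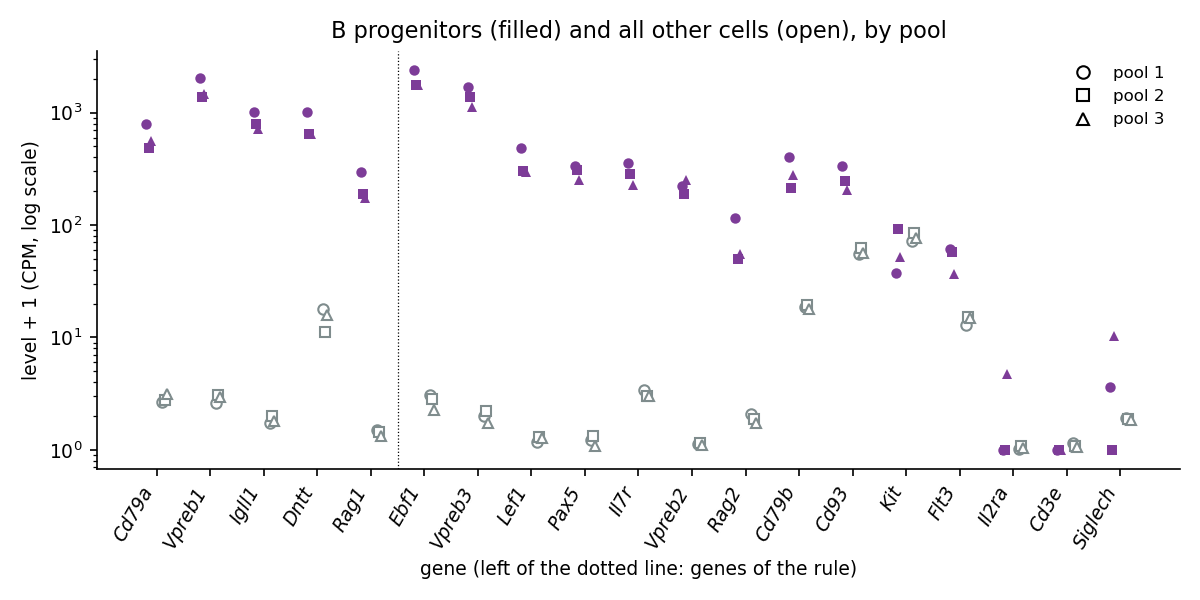
Level + 1 in CPM on a log scale (y axis) of 19 genes (x axis) in the members (filled symbols) and all other cells (open symbols), 1 symbol for each of the 3 pools, with the genes of the rule left of the dotted line. Ebf1, Vpreb3, Lef1, Pax5, Il7r and Vpreb2 sat far above other cells in every pool, Kit did not, and Cd3e was at 0 UMIs in members.

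Among the genes of the rule, Vpreb1 was found in 91.3% of members, Igll1 in 89.5%, Dntt in 84.0% and Rag1 in 59.8%. All 4 were present together in 106 members (48.4%), 3 in 76 members, 2 in 22 and a single one in 15. Vpreb1 and Igll1, the genes of the surrogate light chain, are neighbors on the minus strand of chromosome 16 (GRCm38 16868403 to 16870843 and 16860671 to 16863985), and 190 of the 200 Vpreb1-positive members (95%) also had Igll1. Most members therefore met the rule several times over. At the edge of the rule, the 51 members with exactly 1 Cd79a UMI had Ebf1 in 86.3% of cells at 1251 CPM, against 99.4% at 2097 CPM in the 168 members with more. Just outside it, 92 cells with no Cd79a UMI but at least 2 of the 4 genes had Ebf1 in 47.8% at 274 CPM. The 192 Cd79a-positive cells with none of the 4 genes had Ebf1 in 7.81% of cells and a summed Igkc level of 124224 CPM, and the 50 cells with both Cd79a and Ms4a1 had Ebf1 in 34% of cells at 65.6 CPM and Igkc at 307451 CPM. These last 2 classes, outside the rule, thus had less Ebf1 and more Igkc than the members.

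Among the 15 genes with the largest ratio of level in members to level in other cells were, in order, Vpreb2, Lef1, Vpreb3, Pax5, Fcrl6, Ebf1, Tnfrsf19, Igll1, Chst3, Vpreb1, Gfra1, Rag1, Cplx2 and 1700027J07Rik. Beside well-known B lineage genes they included Fcrl6, an Fc receptor-like gene, at 49.6, 66.2 and 78.8 CPM and also Tnfrsf19, a tumor necrosis factor receptor family member, at 73.1, 47.5 and 50.7 CPM. Of 8215 genes compared, 36.4% lay above the other cells and 15.3% below in every pool without overlap, with a median log2 difference of 0.16, and the gene lists that follow are set beside those shares without a test.

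Of 22 genes of the pre-B cell receptor and its signaling, 17 lay above the other cells and 1 below, with a median log2 difference of 1.21, a count that holds Cd79a, Vpreb1 and Igll1, which the rule itself placed above. Cd79b, the partner of CD79A, stood at 402, 214 and 276 CPM against 17.0 to 18.6 CPM in other cells. Blnk, the adaptor that carries the signal inward, stood at 319, 214 and 201 CPM against 1.72 to 2.14 CPM, and Syk, the kinase above it, at 133, 141 and 141 CPM against 63.0 to 81.3 CPM. Vpreb2, a near-identical copy of Vpreb1 whose reads the counting may split between both genes, stood at 219, 187 and 249.5 CPM. These values lay above the other cells in every pool. Ighm, the heavy chain itself, was found in 94.5% of members at 1165, 835 and 1698 CPM, and in 27.5% of other cells at 404 to 760.5 CPM. Igkc, the kappa light chain, was found in 38.8% of members against 28.7% of other cells, at 120.1, 120.4 and 5900.5 CPM against 1249 to 1833 CPM, and 1 member alone held 3015 of the 3262 Igkc UMIs (92.4%). The same pattern held for Jchain, a plasma cell gene, with 304 of 311 UMIs in 1 member. In pools 1 and 2 the light chain level of members was thus below that of the other cells, and in pool 3 a single member set it.

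Of 29 transcription factors of the B lineage, 23 lay above the other cells and 2 below, with a median log2 difference of 1.55. Lef1, a transcription factor of WNT signaling, stood at 486, 304 and 296 CPM against 0.168 to 0.305 CPM. Tcf3, the gene of the E2A proteins, stood at 345, 241 and 208 CPM against 55.6 to 59.6 CPM, and Id3, an inhibitor of those proteins, at 131, 110.3 and 69.4 CPM against 0.214 to 0.440 CPM. Foxo1, which drives Rag transcription, stood at 136, 103 and 91.9 CPM against 3.08 to 3.88 CPM. An activator and its inhibitor were thus both far above the rest. Bach2 was uneven, at 138, 64.5 and 135 CPM. Myc, at 60.1, 144 and 73.2 CPM, overlapped the other cells at 70.9 to 80.5 CPM.

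Of 16 genes of V(D)J recombination, 9 lay above and none below, with a median log2 difference of 0.56, a count that holds Rag1 and Dntt, which the rule itself placed above. Rag2, the partner of Rag1 on chromosome 2, stood at 115, 49.2 and 54.4 CPM and was found in 31.1% of members against 0.827% of other cells. The end joining genes Lig4 (31.3, 35.6 and 35.6 CPM against 3.29 to 3.70 CPM) and Xrcc6 (88.8, 89.9 and 93.8 CPM against 22.8 to 24.95 CPM), which close the cut DNA, were also higher and varied little between pools.

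Of 19 genes of interleukin-7 receptor signaling, 12 lay above and none below, with a median log2 difference of 0.33. The list's largest contrast after Il7r itself was Socs2, a feedback inhibitor of cytokine signaling, at 67.9, 86.5 and 107 CPM against 1.27 to 1.61 CPM. Ccnd3, the D-type cyclin that pre-B cell division needs, stood at 504, 302 and 379 CPM against 145 to 154 CPM, and Ccnd2 at 162, 227 and 139 CPM against 81.7 to 102 CPM. Among the other genes of the list, the kinase Jak1 (149 CPM on average against 117 CPM) and the transcription factor Stat5a (30.1 CPM against 28.0 CPM) were closer to the other cells. These examples were picked after their values were seen.

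Kit, the gene of the antigen that was enriched, was found in 23.3% of members against 39.7% of other cells, and its level of 36.6, 91.6 and 50.7 CPM overlapped the 71.8 to 84.6 CPM of other cells. Flt3, a receptor of earlier lymphoid progenitors, stood at 60.1, 56.0 and 35.6 CPM against 11.98 to 14.1 CPM, and Cd93, an early B cell surface antigen, at 334, 246 and 204 CPM against 53.8 to 61.2 CPM. Il2ra, the gene of CD25 that later pre-B cells display, had a UMI in 2 members (0.913%). Over the whole list of 13 early surface genes, 8 lay above and 1 below, with a median log2 difference of 0.51.

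Division genes were prominent. Of 52 genes of the G2 and M phases, 39 lay above the other cells and none below (median log2 difference 0.54), and of 44 S phase genes 25 lay above and 2 below (median 0.27). Mki67 stood at 522, 439 and 418 CPM against 269 to 297 CPM and Top2a at 1094, 687 and 812 CPM against 388 to 415 CPM. A UMI of either gene was found in 66.1%, 63.3% and 60.5% of members in pools 1, 2 and 3, below the 71.3% to 78.0% of the deeper other cells. After each cell was thinned to 2000 UMIs, which left out 49 shallower members, the shares were 66.0%, 68.3% and 56.1% in members and 53.1% to 56.0% in other cells. The thinned share was thus higher in members in pools 1 and 2 and about equal in pool 3, and among members with fewer than 10 UMIs of the myeloid genes named below it was 65.9%, 53.8% and 57.1%, so that pool 1 alone stood clearly above.

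Brequinar blocks DHODH, the mitochondrial enzyme of pyrimidine synthesis, and its gene was barely detected. Dhodh stood at 10.4, 11.9 and 5.63 CPM against 9.43 to 10.6 CPM in other cells, where 3 UMIs of a pool's members amount to 5.09 to 7.83 CPM. Of 28 genes of pyrimidine synthesis and salvage, 8 lay above and 7 below, with a median log2 difference of 0.02. Cad and Umps, the other enzymes of the synthesis route, overlapped the other cells, whereas Dck, the kinase that salvages deoxycytidine and is needed by lymphocyte precursors, stood at 227, 248 and 201 CPM against 42.9 to 53.9 CPM. Slc29a1, a nucleoside transporter, stood at 78.3, 94.99 and 61.9 CPM against 31.1 to 35.3 CPM, and Rrm2b, a ribonucleotide reductase subunit that p53 controls, at 52.2, 39.0 and 24.4 CPM against 10.8 to 11.4 CPM. These 3 genes were picked after their values were seen. Among 25 p53 targets 5 lay above and 7 below, with Trp53inp1 (162, 120.4 and 124 CPM against 14.3 to 22.6 CPM) and Cdkn1a (36.6, 45.8 and 41.3 CPM against 7.07 to 12.7 CPM) among the former. Of 43 genes of the unfolded protein response 8 lay above and 18 below (median −0.16), and Hspa5, its chaperone BiP, stood at 345, 397 and 441 CPM against 475 to 499.8 CPM. Of 86 ribosomal protein genes 9 lay above and 17 below (median −0.02).

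Markers of other lineages were mostly low. None of the 10 T and NK cell markers lay above the other cells, 4 were detected at all, and Cd3e, Cd3g, Cd4 and Cd8a had 0 UMIs in members. Erythroid markers lay above in 0 of 10 genes, basophil and mast cell markers in 0 of 7, and monocyte and macrophage markers in 0 of 10. Dendritic cell markers lay above in 3 of 9. All 8 markers of granulocyte-monocyte progenitors (GMPs) and promyelocytes and all 13 neutrophil markers lay below the other cells, with median log2 differences of −1.43 and −1.69. S100a9, a neutrophil calprotectin subunit, stood at 12716, 15439 and 5578 CPM in members against 32892 to 39114 CPM in other cells. It had a UMI in 94.1% of members, 99.7% of other cells and 98% of the later B cells with Cd79a and Ms4a1, which should lack it, so that a UMI of it does not show expression by the cell, and free RNA cannot be told apart from a cell's own.

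These myeloid transcripts were unevenly spread. Summed over Mpo, Elane, Prtn3, Ctsg and Ms4a3, 13 members had 0 UMIs, 187 had at least 2 and 42 had at least 10. Of the 42, 14 were marked as likely doublets by Scrublet and 12 had more than 1 hashtag, while Scrublet marked 18 of all 219 members (8.22%, against 4.51% of other cells). Members with 10 or more such UMIs had a median of 15434 UMIs, against 3086 in the rest. The neutrophil markers summed to 38279, 16738 and 5344 CPM in the members of NTB mice 1, 2 and 3, to 27112, 20251 and 1672 CPM in vehicle mice and to 1882, 15226 and 5121 CPM in brequinar mice. The GMP markers summed to 1942, 9115 and 5532 CPM, 9437, 6024 and 1267 CPM, and 1474, 6497 and 13619 CPM in the same order. The groups overlapped in both sums, and their part in the comparisons between mice was not tested. Results that could turn on these transcripts are therefore also given for the 177 members with fewer than 10 such UMIs, a limit chosen after the data were seen. The limit does not count the neutrophil markers and did not clear them. Below it these summed to 2106, 1391 and 1415 CPM in NTB mice. The sums were 17831, 52127 and 1881 CPM in vehicle mice and 1882, 8484 and 2542 CPM in brequinar mice.

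**Figure D2:**
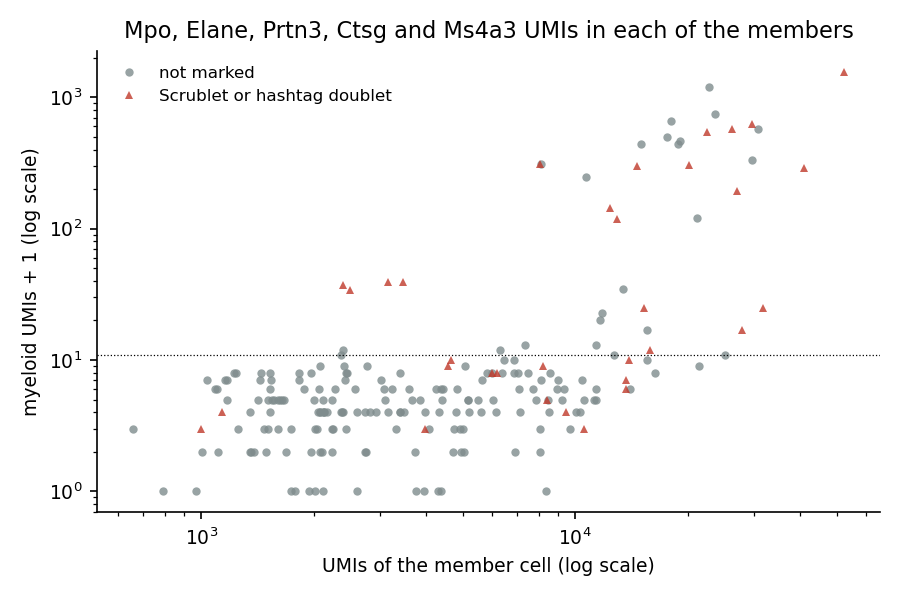
Summed UMIs of Mpo, Elane, Prtn3, Ctsg and Ms4a3 plus 1 (y axis, log scale) against all UMIs of the cell (x axis, log scale), 1 point per member, with triangles for members marked as doublets by Scrublet or by their hashtags. The 42 members with 10 or more myeloid UMIs, above the dotted line, were mostly the deep ones, with a median of 15434 UMIs.

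Members with and without a UMI of Mki67 or Top2a differed in opposite ways in 2 gene lists. Below 10 myeloid UMIs the pre-B cell receptor list summed to 10647, 8008 and 9332 CPM in cycling members and to 14296, 18564 and 17563 CPM in non-cycling ones. The recombination list summed to 11033, 8502 and 8178 CPM against 4125, 4573 and 5213 CPM, although Rag1 within it ran the other way. That list also summed to 3928, 4132 and 3858 CPM in the cells that were not members, so its sum is not particular to recombining cells. Which of its genes set the difference was not tested. Of the members below 10 myeloid UMIs, 98 had a UMI of Mki67 or Top2a and 79 had none, with median depths of 5178.5 and 1966 UMIs. Depth thus differed with the class, and its part in the differences was not tested. Rag1, Vpreb1, Igll1 and Cd79a are genes of the rule, which a shallow cell enters only with such a UMI, so that the rule itself can raise their level in the shallower class. Of 2156 genes at 100 CPM or more in either class, 21.9% were higher in cycling members and 20.3% in non-cycling members without overlap of the 3 pools. Rag1 stood at 323, 234 and 190.2 CPM in cycling members and at 836, 675 and 749.5 CPM in non-cycling ones. Vpreb2 stood at 156, 216 and 307 CPM against 494, 726 and 919.9 CPM. Lef1 stood at 651, 373 and 442 CPM against 836, 1080.1 and 954 CPM. For these 3 genes every pool's non-cycling level lay above every pool's cycling level. The same held for Vpreb1 (2391, 1674 and 2184 CPM against 3289, 4675 and 4361 CPM), Igll1 (1216, 1034 and 1079.8 CPM against 1901, 2194 and 2163 CPM) and Ebf1 (3255, 2306 and 2742 CPM against 3593, 4860.3 and 4702 CPM). Also higher without overlap in non-cycling members were Erg, an early hematopoietic factor, Mxd4, which opposes MYC, Ltb, a lymphotoxin, and the p53 target Trp53inp1 at 437, 405 and 511 CPM against 179, 143 and 104 CPM. Pax5, Il7r and Ighm overlapped. On the other side, Pclaf, a replication clamp partner, stood at 1383, 885 and 1337 CPM in cycling members against 57.0, 33.8 and 0 CPM, and Cdk1 and Kif11 had no UMI in non-cycling members. The non-cycling class held 20, 28 and 31 cells in the 3 pools.

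**Figure D3:**
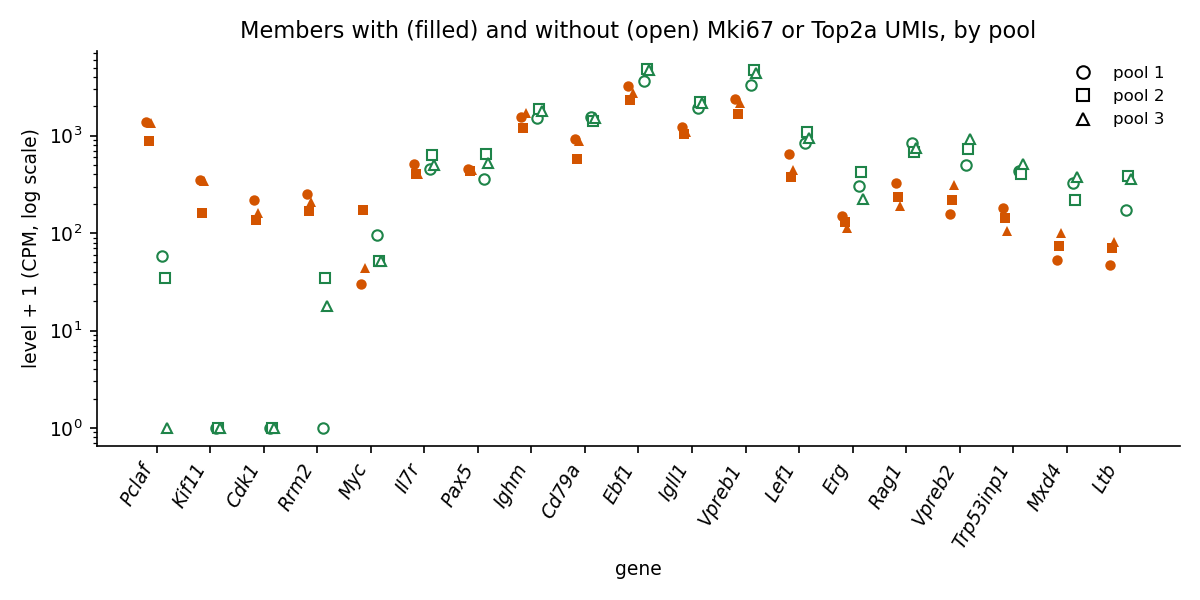
Level + 1 in CPM on a log scale (y axis) of 19 genes (x axis) in members with fewer than 10 myeloid UMIs that had (filled) or lacked (open) a UMI of Mki67 or Top2a, 1 symbol per pool. Rag1, Vpreb2, Lef1, Erg, Trp53inp1, Mxd4 and Ltb were higher in all pools of the non-cycling members, Pclaf, Kif11 and Cdk1 in all pools of the cycling ones, and Pax5, Il7r and Ighm overlapped.

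Dntt, which is shut off as cells leave the pro-B stage, divided the members unequally. A Dntt UMI was present in 184 members and absent in 35, and with fewer than 10 myeloid UMIs in 158 and 19, of which pools 1, 2 and 3 held 3, 7 and 9. Of 2154 genes at 100 CPM or more in either class, 10.3% were higher with and 10.4% without Dntt in all pools. Erg stood at 195, 189.7 and 172 CPM with Dntt and at 0, 45.7 and 38.0 CPM without, and Foxo1 at 218, 170.4 and 189 CPM against 0, 45.7 and 56.9 CPM. Without Dntt both genes had 0 UMIs in pool 1 and fewer than 3, the floor, in pool 2. Cd24a, the heat-stable antigen that rises along B cell development, ran the other way, at 496, 534 and 645 CPM with Dntt and at 1848, 914 and 1309.8 CPM without. Bst1, a surface enzyme of early B cells, and Cited2 were higher with Dntt, and Lmo4 and Gm30211 without. Ighm, at 1427, 1309 and 1384 CPM with and 4084, 1325 and 2885 CPM without, was higher without Dntt in pools 1 and 3 and about equal in pool 2, and Pax5 overlapped.

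The members' share of a mouse's cells did not separate the groups. Counted over the cells given to each mouse, it was 1.44%, 1.61% and 0.572% for pools 1, 2 and 3 of the NTB mice, 0.827%, 1.31% and 0.714% in vehicle mice and 0.506%, 1.21% and 1.11% in brequinar mice. These values rest on 8, 21 and 14 members, 23, 5 and 9 members, and 13, 28 and 26 members. The exact interval was widest in vehicle mouse 2 (0.426% to 3.03%) and narrowest in brequinar mouse 1 (0.269% to 0.863%). The mean was 1.21% ± 0.556 (SD, n = 3) in NTB, 0.950% ± 0.316 in vehicle and 0.941% ± 0.380 in brequinar mice, and a two-sided exact permutation test gave p = 0.6 for vehicle against NTB, p = 1 for brequinar against vehicle and p = 0.5 for brequinar against NTB. With 3 mice against 3 this test cannot go below 0.1. All groups overlapped, in a share that the numbers of all other captured cells also set.

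Set against later B cells of the same mouse, the cells with UMIs of both Cd79a and Ms4a1, members numbered 400, 300 and 175 per 100 in NTB mice, 1150, 167 and 450 per 100 in vehicle mice and 325, 1400 and 867 per 100 in brequinar mice. The ratios rest on 2 to 8 later B cells per mouse, and exact permutation tests gave p = 0.5 for vehicle against NTB, p = 0.6 for brequinar against vehicle and p = 0.2 for brequinar against NTB.

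Dntt is a gene of the rule, so its share is given with no test. The share of members with a Dntt UMI was 87.5%, 90.5% and 71.4% in NTB mice, 91.3%, 100% and 66.7% in vehicle mice and 100%, 82.1% and 92.3% in brequinar mice. In mice with at least 10 members, a limit that left NTB mice 2 and 3, vehicle mouse 1 and all brequinar mice, it averaged 91.5% in brequinar and 81.0% in NTB mice, a difference of 10.5 percentage points that became 1.01 without NTB mouse 3 and 20.1 without NTB mouse 2. The share with Mki67 or Top2a was 62.5%, 81.0% and 64.3% in NTB mice, 56.5%, 80.0% and 66.7% in vehicle mice and 69.2%, 42.9% and 53.8% in brequinar mice. Brequinar mouse 1 lay within the range of the other groups and brequinar mice 2 and 3 lay below all of them, and the difference from NTB did not pass (exact permutation p = 0.3, mice with at least 10 members). Over all 9 mice the exact permutation p-values of the division share were 0.3 to 0.9.

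**Figure D4:**
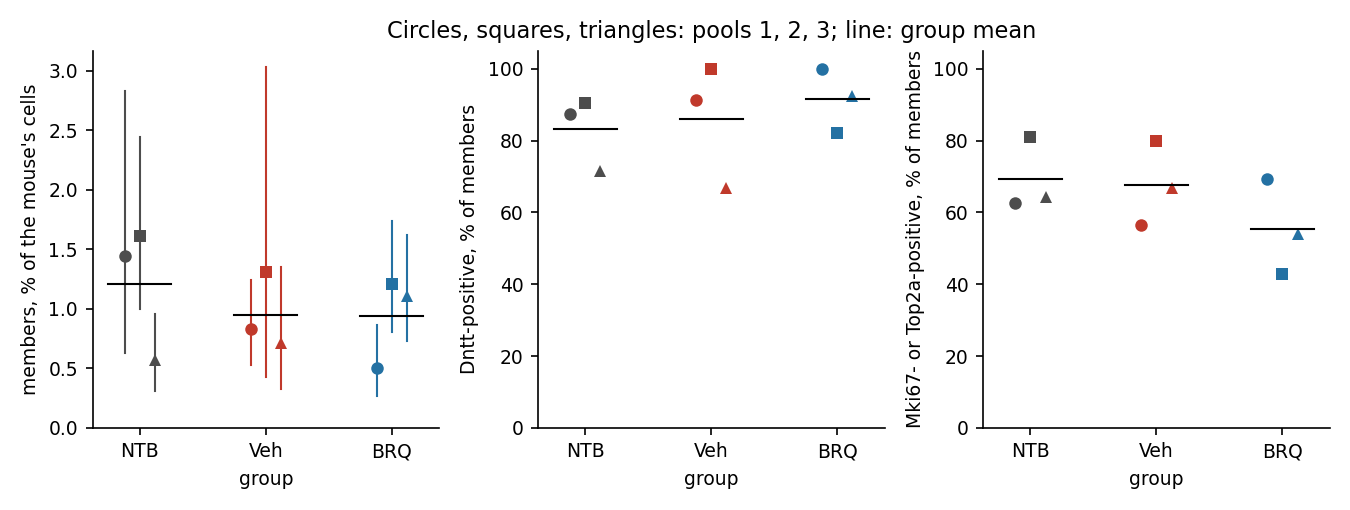
For each mouse, the share of members among its cells (left, with exact 95% intervals), the share of members with a Dntt UMI (middle) and the share with a Mki67 or Top2a UMI (right), all in percent (y axes) by group (x axes), with the group mean as a line. The 3 groups overlapped in each measure, and brequinar mice 2 and 3 had the lowest division shares at 42.9% and 53.8%.

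UMIs were summed over the members of each mouse and compared with edgeR's quasi-likelihood test, with p-values adjusted over all genes tested. The limit of 10 members allowed brequinar against NTB as the sole comparison, in which 3 of 4185 genes (0.0717%) passed, while 163 genes (3.89%) had an unadjusted p under 0.05. No gene passed with the pool as a replicate block or with DESeq2. Camp, an antimicrobial peptide of neutrophil granules, was one of the 3. Its level was 7102, 1033 and 158 CPM in NTB mice, 2353, 2302 and 50.4 CPM in vehicle mice and 133, 79.2 and 87.4 CPM in brequinar mice. In the fit, which left out NTB mouse 1, Camp was lower with brequinar by −2.71 on the log2 scale (SE 0.44, edgeR adjusted p = 0.000743). In NTB mouse 2 a single cell held 155 of the 168 Camp UMIs, in NTB mouse 1 454 of 464 and in vehicle mouse 2 148 of 148. Without Scrublet-marked cells the difference was −0.56 (edgeR adjusted p = 0.996). Below 10 myeloid UMIs, with every mouse in the fit, it was 0.13 (edgeR adjusted p = 0.979).

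Nrgn, which encodes a calmodulin-binding protein, stood at 61.2, 67.7 and 216 CPM in NTB mice, 49.5, 15.6 and 16.8 CPM in vehicle mice and 16.6, 14.4 and 12.5 CPM in brequinar mice. Every brequinar mouse lay below every NTB mouse, by −3.22 on the log2 scale (SE 0.63, edgeR adjusted p = 0.0140). These brequinar values rest on 1, 2 and 2 UMIs, under the floor of 3, a single cell held 13 of the 26 Nrgn UMIs of NTB mouse 3, and Nrgn was not among the genes called without that mouse. Ifitm1, an interferon-induced membrane protein gene, stood at 15.3, 0 and 16.6 CPM in NTB mice, 177, 715 and 16.8 CPM in vehicle mice and 33.2, 129.5 and 144 CPM in brequinar mice, a difference of 3.82 between brequinar and NTB (SE 0.77, edgeR adjusted p = 0.0140). All brequinar mice lay above all NTB mice, though the NTB values rest on 0 to 2 UMIs per mouse and in vehicle mouse 1 a single cell held 24 of 25 UMIs. Without Scrublet-marked cells Ifitm1 differed by 3.24 (edgeR adjusted p = 0.434). Without vehicle mouse 1, the sole vehicle library of this fit, no gene passed. Without NTB mouse 2, which left NTB mouse 3 alone with an assumed spread like that of the brequinar mice, Ifitm1 differed by 2.69 (edgeR adjusted p = 0.402), Camp by −0.76 (edgeR adjusted p = 0.999) and Nrgn by −3.88 (edgeR adjusted p = 0.000509).

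With all 9 mice in the fit, none of 2510 genes passed in any of the 3 comparisons by edgeR or by DESeq2, so percent called was 0 in each. At an unadjusted p under 0.05, edgeR gave 118 genes (4.7%) for vehicle against NTB, 140 (5.58%) for brequinar against vehicle and 124 (4.94%) for brequinar against NTB, and DESeq2 gave 56, 61 and 53. Groups did not overlap for 10.4%, 10.6% and 10.4% of genes. Ebf1 stood at 2617, 1796 and 1947 CPM in NTB mice, 2127, 1664 and 2299 CPM in vehicle mice and 3469.8, 2389 and 2042 CPM in brequinar mice. Igll1 stood at 903, 824 and 832 CPM, 1059.9, 715 and 655 CPM, and 1395, 1000.2 and 837 CPM in the same order. In both genes brequinar mouse 1 was the highest of all 9 and the groups of tumor-bearing mice overlapped. Ebf1, Pax5, Il7r and Vpreb3 gave no edgeR adjusted p under 0.8 in these fits. Below 10 myeloid UMIs Ebf1 stood at 3149, 2446 and 3120 CPM in NTB mice and 3563, 3967 and 3992 CPM in brequinar mice, and Pax5 at 260.2, 365 and 336 CPM against 631, 580.2 and 520.02 CPM. Both lay higher in brequinar mice without overlap there, by 0.48 and 0.85, and neither passed (edgeR adjusted p = 0.319 and 0.173).

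Of the recombinase genes, Rag1 belongs to the rule and its levels are given with no test. Rag1 stood at 276, 234 and 108 CPM in NTB mice, 240.2, 93.3 and 101 CPM in vehicle mice and 614, 288 and 244 CPM in brequinar mice. Each brequinar mouse lay above each vehicle mouse. Rag2, at 45.9, 43.1 and 24.97 CPM, 127, 0 and 83.9 CPM, and 149, 101 and 81.2 CPM in the same order, differed by 1.498 between brequinar and NTB (SE 0.53, edgeR adjusted p = 0.856).

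Vpreb2 stood at 291, 30.8 and 183 CPM in NTB mice, 268, 233 and 403 CPM in vehicle mice and 199, 425 and 356 CPM in brequinar mice, with a difference of 1.74 between brequinar and NTB in mice with at least 10 members (SE 0.43, edgeR adjusted p = 0.195). Vpreb1, its near-identical copy, overlapped between all groups, at 1073 to 2391 CPM. Cd24a stood at 827, 486 and 1223 CPM in NTB mice, 360.4, 327 and 302 CPM in vehicle mice and 498, 504 and 406 CPM in brequinar mice. All vehicle mice lay below all others in Cd24a, and the difference from NTB of −1.34 (SE 0.31) had an edgeR adjusted p of 0.599. It passed only with no filter on low counts (−1.39, edgeR adjusted p = 0.00143). Below 10 myeloid UMIs the groups overlapped in Cd24a, at 390.4, 511 and 1416 CPM in NTB, 427, 683 and 382 CPM in vehicle and 511, 526 and 566 CPM in brequinar mice, and the difference from NTB was −0.66 (edgeR adjusted p = 0.679).

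**Figure D5:**
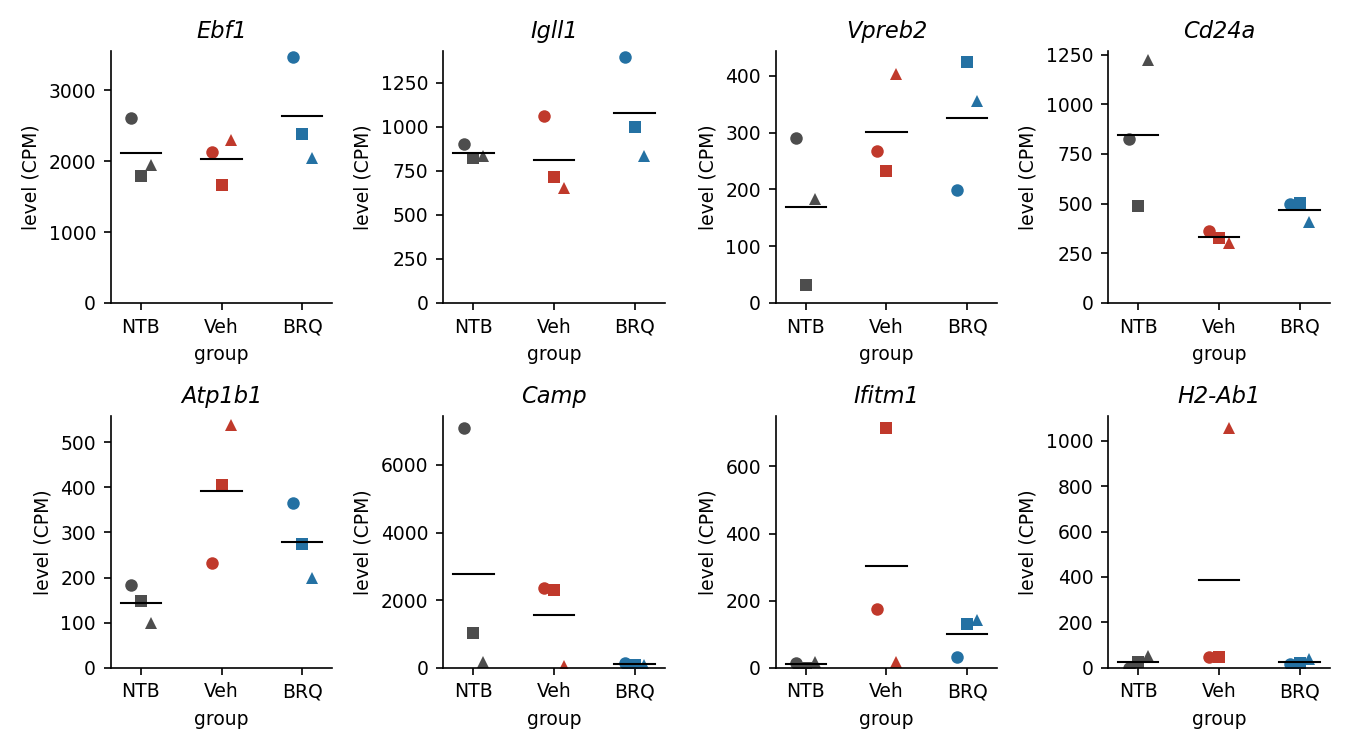
Level in CPM (y axes, each from 0) of 8 genes in the summed members of each mouse by group (x axes), 1 symbol per pool (circle 1, square 2, triangle 3), with the group mean as a line. Ebf1 and Igll1 overlapped between groups, the vehicle mice were lowest in Cd24a (not so below 10 myeloid UMIs), and single mice carried the high values of Camp (7102 CPM, NTB mouse 1), Ifitm1 (715 CPM, vehicle mouse 2) and H2-Ab1 (1057 CPM, vehicle mouse 3).

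In members with fewer than 10 myeloid UMIs, 8 of 1138 genes (0.703%) passed for vehicle against NTB, 4 (0.351%) for brequinar against vehicle and 4 (0.351%) for brequinar against NTB, all with every mouse in the fit. In the fit vehicle exceeded NTB in S100a9, S100a8, Ngp, Camp, Tmsb4x, Cst3, Atp1b1 and Cd52, of which the first 4 are neutrophil genes. Mice of these groups overlapped in S100a8, Camp and Cd52. For Camp, vehicle mouse 3 stood at 42.4 CPM, below the NTB mice at 208, 91.3 and 168 CPM. S100a9 stood at 885, 657 and 624 CPM in NTB mice, 8250.4, 22159 and 933 CPM in vehicle mice and 818, 3710.3 and 1101 CPM in brequinar mice. Single cells carried several of these sums: over all members, 1 cell of vehicle mouse 2 held 148 of 148 Camp and 1 cell 122 of 128 Ngp UMIs, and in vehicle mouse 3 1 cell held 221 of 224 Cst3 and 1 cell 42 of 53 Cd52 UMIs. Without that mouse's level of 4707 CPM, Cst3 stood at 362 and 299 CPM in the other vehicle mice, against 260.2, 155 and 216 CPM in NTB mice. In the fit brequinar lay below vehicle in Ngp, Camp, Cst3 and S100a9, though mice of these groups overlapped in all but Ngp. Vehicle mouse 3 ran the other way in Camp, at 42.4 CPM against 136, 148 and 153 CPM in brequinar mice.

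Atp1b1, a subunit of the sodium and potassium pump, passed against NTB in both groups of tumor-bearing mice. It stood at 156, 173 and 96.0 CPM in NTB mice, 310.4, 683 and 615 CPM in vehicle mice and 375, 472 and 428 CPM in brequinar mice. It was higher in vehicle than in NTB members by 1.70 (SE 0.36, edgeR adjusted p = 0.00810) and higher in brequinar than in NTB members by 1.55 (SE 0.34, edgeR adjusted p = 0.0316). Over all members the corresponding differences were 1.41 and 0.97, which did not pass (edgeR adjusted p = 0.861 and 0.957). Vpreb2 was higher in brequinar than in NTB members by 2.13 (edgeR adjusted p = 0.0316), at 205, 742 and 688 CPM against 156, 45.6 and 288 CPM, and the groups overlapped. The mitochondrial gene mt-Co1 (9768, 8487 and 10798 CPM against 5517, 5804 and 6072 CPM) and Fam53b (494, 499 and 551 CPM against 130.1, 274 and 144 CPM) were also higher with brequinar than in NTB, without overlap.

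Over all members, lists of genes gave no called gene in the fit of all 9 mice, and Camp of the neutrophil list was the sole one in mice with at least 10 members. Below 10 myeloid UMIs, Vpreb2 of the pre-B cell receptor list and neutrophil genes passed, as given above. Of 81 ribosomal protein genes tested for brequinar against vehicle, 24 were lower and none higher at an unadjusted p under 0.05, beside 5.58% of all genes in either direction, and their median log2 difference was −0.26 beside 0.01 for all genes (smallest edgeR adjusted p = 0.791). Summed over the list, members held 238043, 254956 and 236006 CPM in NTB mice, 249497, 248399 and 240287 CPM in vehicle mice and 199883, 232390 and 213046 CPM in brequinar mice. Every brequinar mouse lay below every other mouse in this sum. The mitochondrial mt-Co1, scaled by the fit's library factors unlike this sum, stood at 9513, 7412 and 10131 CPM in brequinar mice. In vehicle mice it stood at 6324, 6502 and 5975 CPM. It was higher with brequinar without overlap but did not pass the test (0.55 on the log2 scale, SE 0.14, edgeR adjusted p = 0.773). The part of mt-Co1 in the sum was not tested. Below 10 myeloid UMIs the NTB mice held 270869, 231687 and 237820 CPM, the vehicle mice 224591, 207578 and 233303 CPM and the brequinar mice 199883, 220899 and 176536 CPM, so that brequinar overlapped vehicle but not NTB mice.

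Of 48 genes of the G2 and M phases tested for brequinar against NTB in mice with at least 10 members, 8 were lower and none higher at an unadjusted p under 0.05, beside 3.89% of all genes in either direction, with a median log2 difference of −0.48 beside 0.01 for all genes and no adjusted p under 0.05. Below 10 myeloid UMIs, with every mouse in the fit, the difference was −0.07 for Mki67 and −0.36 for Top2a, against −0.53 and −0.76 here, and the list's sums overlapped, at 16074, 13669 and 13043 CPM in NTB and 15714, 10242 and 11669 CPM in brequinar mice. Of the recombination genes outside the rule, Rag2 (1.498) and Xrcc6 (0.999) were higher at that limit. Of 18 genes of the pre-B cell receptor 2 were higher and none lower, Vpreb2 and Pik3cd, neither of them a gene of the rule. Genes of pyrimidine synthesis (15 tested, none at an unadjusted p under 0.05, median −0.22) and of the unfolded protein response (27 tested, none, median −0.12) held no gene past that limit. None of the genes of these 5 lists passed after adjustment in this fit. Vpreb2 passed below 10 myeloid UMIs (2.13, edgeR adjusted p = 0.0316) and with no filter on low counts (1.70, edgeR adjusted p = 0.0230). It also passed without brequinar mouse 1 or 3 (1.97 and 1.74, edgeR adjusted p = 8.03e-05 and 0.0109). Without NTB mouse 3, which left NTB mouse 2 alone in its group, Vpreb2 differed by 3.42. In vehicle against NTB over all 9 mice the medians were −0.40 for the G2 and M phases and 0.05 for ribosomal proteins.

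Members and GMPs of the same mice were set against each other to ask where their responses differ, with GMPs taken as cells rich in Ms4a3. Every mouse entered this fit, since the limit of 10 members left a single vehicle mouse. Members and GMPs shared the filter on low counts and the spread, and 8041 genes entered, against 2510 in the fit of members alone. A gene could thus pass the filter through its GMP counts with few UMIs in members. Among the genes called, members held 0 to 9 UMIs of Lipg per mouse, 0 to 19 of Cpox and 0 to 25 of Ly6c2. In an edgeR test of the interaction of cell type and group over all 9 mice, 10 of 8041 genes (0.124%) differed in their change from NTB to vehicle and 3 (0.0373%) in their change from vehicle to brequinar, while 527 and 403 genes had an unadjusted p under 0.05. Atp1b1 was again among them: in GMPs it stood at 27.3, 19.7 and 27.5 CPM in NTB mice and at 12.5, 11.8 and 12.4 CPM in vehicle mice, whereas in members the vehicle mice, at 233, 404 and 537 CPM, all lay above the NTB mice at 184, 148 and 99.9 CPM. Its changes differed by 2.30 on the log2 scale (SE 0.40, edgeR adjusted p = 0.00169).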

How the data were processed

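Per the labels and the submitters' processing notes, the authors made 10x 3′ v3.1 libraries of 3 pools, each holding 1 hashtagged mouse per group, and aligned them with Cell Ranger 6.0.0 to mm10. The deposited matrices hold raw UMI counts per gene and hashtag for 39488 barcodes. Here, cells with 500 to 7500 genes and a mitochondrial share of at most 15% were kept, whereas the study states the limits of 500 and 7500 for transcripts. Mice were assigned with HTODemux of Seurat 5.3.0 at a positive quantile of 0.99, and doublets were marked with Scrublet (scanpy 1.11.5) but not removed. The members and gene lists were chosen with earlier results of these data known.

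Member UMIs were summed per mouse and tested with edgeR 4.0.16 (limma 3.58.1, R 4.3.3; quasi-likelihood, TMM, filterByExpr, Benjamini-Hochberg, called at an adjusted p under 0.05). The limit of 10 members per mouse left 1 vehicle mouse, so both vehicle comparisons and the GMP interaction used every mouse, a choice made after the data were seen. A cell was taken as a GMP where its Ms4a3 UMIs, scaled to 10000 UMIs per cell and logged as ln(1 + x), exceeded 3. CPM of single genes per mouse are TMM-scaled for members and for GMPs. Sums of gene lists per mouse are unscaled. Shares were compared by two-sided exact permutation tests over mice, and intervals are exact (Clopper-Pearson) and cover counting error only. Genes with fewer than 3 UMIs in a sum lie at or under the floor.

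Genes named were a set list of B lineage genes, up to 8 called genes per direction with at least 50 CPM and no overlap, the extremes of each list, and the 15 strongest markers. Other genes, among them those of the splits and of the members with fewer than 10 myeloid UMIs, were named after their values were seen. Per the labels a pool joins 1 mouse of each group. Deviations from group means correlated at −0.26 to 0.11 within pools (2 of 9 pairs over 0.1) and at −0.19 to 0.27 between pools (4 of 18). Alternatives were DESeq2 1.42.0, RLE factors, no filter, the pool as a block, other hashtag calls, other cell limits, no Scrublet-marked cells, at least 2 Cd79a UMIs, fewer myeloid UMIs, thinning and leaving out each mouse. Tests were checked on simulated data. Other software was matplotlib 3.10.9, pandas 2.3.3, scipy 1.17.1 and numpy 2.4.6 under Python 3.11.15. Gene positions are those of GENCODE M21 on GRCm38. 1 marker gene is not reported here.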

Additional observations from a re-analysis of the deposited data

Results flagged for a closer look

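In 10 genes the change from NTB to vehicle differed between the members and the GMPs of the same mice in edgeR's interaction test over all 9 mice. As given above, that test shares its filter and its spread between members and GMPs. The log2 differences of the changes, members minus GMPs, were 2.30 for Atp1b1, 3.26 for Lsp1 and 3.09 for Ltf (adjusted p = 0.00169 each). They were 1.63 for Cd52, −2.84 for Spata7 and 4.08 for Ly6c2 (edgeR adjusted p = 0.00933 each). For Cst3 the difference was 2.18 and for Cpox −3.75 (edgeR adjusted p = 0.0128 each). The Cpox value is no bound, since vehicle members held 1, 2 and 0 Cpox UMIs and 1 cell held 16 of the 19 of NTB mouse 3. For H2-Ab1, an MHC class II gene, it was 4.61 (edgeR adjusted p = 0.0482). For Lipg the fitted difference was −10.72 (edgeR adjusted p = 0.0365), which is no bound either, because members had 0 Lipg UMIs in 5 mice, all 3 vehicle mice among them.

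From vehicle to brequinar the change differed by −2.87 for Lcn2 and −4.43 for H2-Ab1 (edgeR adjusted p = 0.0301 each) and by −2.74 for Ltf (edgeR adjusted p = 0.0430). Single cells carried several of these sums. In vehicle mouse 3, 1 member held 62 of 63 H2-Ab1 UMIs and 221 of 224 Cst3 UMIs. Lsp1 had 3, 7 and 2 UMIs in NTB members and 18, 4 and 15 in vehicle members, and 1 cell held 11 of those 15. In vehicle mouse 2, 1 member held 43 of 44 Ltf UMIs and 46 of 50 Lcn2 UMIs, and in vehicle mouse 1, 1 member held 20 of 25 Ly6c2 UMIs. Members of vehicle mice 2 and 3 had 0 Ly6c2 UMIs, against 2, 2 and 1 in NTB mice, so that a single vehicle mouse lay above NTB. Their part in the differences was not tested.

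Spata7 stood at 153, 98.4 and 191 CPM in the members of NTB mice, 35.3, 31.1 and 50.4 CPM in those of vehicle mice and 116, 331 and 156 CPM in those of brequinar mice, with no vehicle mouse overlapping the other groups. The vehicle values rest on 5, 2 and 3 UMIs, and single cells held 7 of 10 Spata7 UMIs in NTB mouse 1, 18 of 23 in NTB mouse 3, 6 of 7 in brequinar mouse 1 and 15 of 25 in brequinar mouse 3. In GMPs it ran the other way, at 66.6, 53.4 and 88.7 CPM in NTB mice and at 116, 150 and 135 CPM in vehicle mice.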

How the results depend on the processing

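With at most 3 mice per group the exact test cannot go below 0.1, so the alternatives are read by size and sign. In percentage points, the member share differed between brequinar and vehicle by −0.0094, but by 0.220 with tag ratios and 1.07 with limits on UMIs instead of genes. It differed by 0.189 without Scrublet-marked cells, 0.0237 with fewer than 10 myeloid UMIs, 0.0495 with scaled tag ratios, and −0.142 to 0.208 with each mouse left out. With fewer than 2 myeloid UMIs it differed by 0.0297, a value that leaves out vehicle mouse 3, which held 0 such members. Brequinar against NTB (−0.267) became 1.00 with limits on UMIs, and vehicle against NTB (−0.258) became 0.207 after thinning, which moved brequinar against vehicle to −0.376. With each mouse left out the differences from NTB ran from −0.585 to −0.0496 for brequinar and from −0.575 to −0.0581 for vehicle (−0.585 and −0.575 without NTB mouse 3, −0.0675 and −0.0581 without NTB mouse 2, and −0.0496 without brequinar mouse 1). With tag ratios the differences from NTB were −3.34 for vehicle and −3.12 for brequinar (exact permutation p = 0.1 each, the smallest possible). These leave out NTB mouse 2, which held 0 members among 31 cells. The other NTB mice stood at 1.48% and 6.45%, the latter on 2 members among 31 cells. With NTB mouse 2 at 0% the groups overlap. The vehicle values of the Dntt and division shares rest on the 1 vehicle mouse with at least 10 members. With every mouse the Dntt share differed by 2.86 for vehicle against NTB and 5.49 for brequinar against vehicle, and the division share by −1.52 and −12.4. The Dntt share of vehicle against NTB (10.4) became −10.38 with tag ratios and 0.828 and 19.9 without NTB mice 3 and 2. For brequinar against NTB (10.5) it became 20.6 with limits on UMIs, 5.36 with fewer than 10 myeloid UMIs, and 1.01 to 20.1 with each mouse left out. For brequinar against vehicle (0.179) it became −1.67 with at least 2 Cd79a UMIs, −0.491 with fewer than 10 myeloid UMIs, −4.28 with scaled tag ratios, 17.5 with tag ratios and 15.6 after thinning, and ran from −4.08 to 4.85 with each mouse left out. The division share of vehicle against NTB (−16.1) became −1.46 with tag ratios, −4.37 with scaled tag ratios, −30.4 with fewer than 10 myeloid UMIs, and −7.76 and −24.4 without NTB mice 2 and 3. The division share of brequinar against vehicle (−1.21) became 7.80 with limits on UMIs, 2.32 without Scrublet-marked cells, 8.33 with at least 2 Cd79a UMIs, 2.49 with fewer than 10 myeloid UMIs and 8.90 with scaled tag ratios, ran from −8.17 to 5.02 with each mouse left out, and against NTB (−17.3) became 4.53 with scaled tag ratios, −2.20 with tag ratios, −27.9 with fewer than 10 myeloid UMIs, and −25.6 to −8.97 with each mouse left out. Members per 100 later B cells differed by 275 and 572 for brequinar against vehicle and NTB, and by −320.8 and −37.5 with tag ratios. The cause was not tested.

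For vehicle against NTB the 0 genes called became 21 with no filter, 8 with fewer than 10 myeloid UMIs and 0 to 1 with a mouse left out (Ifitm1, without vehicle mouse 3). For brequinar against vehicle they became 23 with no filter and 4 with fewer than 10 myeloid UMIs. The 3 genes of brequinar against NTB became 0 with every mouse, DESeq2, scaled tag ratios or the pool as a replicate block, 0 with tag ratios, limits on UMIs or fewer than 2 myeloid UMIs (every mouse), 6 with no filter, 2 without Scrublet-marked cells (S100a6 and Nrgn), and 0 to 11 with each mouse left out (0 without vehicle mouse 1, 5 without NTB mouse 3, and 11, 6 and 8 without brequinar mice 1, 2 and 3). The replicate block changed no other call. The 10 and 3 genes of the interaction with GMPs became 12 to 30 and 11 to 27 with each mouse left out. Leaving out any mouse moved the second count by over 1.5 times, and any mouse but NTB mouse 3 and vehicle mouse 1 the first. The limit of 20 members, the interaction with at least 10 members, and tag ratios, limits on UMIs and fewer myeloid UMIs with at least 10 members gave no value, because too few mice were left. Over all members, each comparison between mice rests on 5 to 28 members per mouse, and the part of these numbers in the results was not tested.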
